A study of Mus musculus with 8 samples.

Results

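The genes described here encode the proteasome. They were chosen by name, as all array probe sets annotated to a single gene symbol that begins with Psma, Psmb, Psmc, Psmd or Psme followed by a number. The rule took 91 of the 45037 probe sets on the array, which stand for 44 of 18193 genes. A probe set is a group of short probes read out as 1 signal, and 21 of the 44 genes had 1 of them while 23 had several, up to 8 for Psmd11. Of the 91 probe sets, 82 were bright enough to be tested, and they cover 43 genes. The 9 that were not tested had signals between 5.42 and 51.1, and Psmb11, which encodes a catalytic subunit made in the thymus, was the only gene left without a tested probe set. The naming rule also takes in Psmc3ip and Psme3ip1, which have 3 probe sets and encode proteins that are not proteasome subunits. It leaves out Psme2, since the probe set for that gene is also annotated to Psme2b.

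The proteasome is the barrel-shaped protease that degrades proteins tagged with ubiquitin in the cytoplasm and nucleus. Its core is a stack of rings of alpha subunits (Psma genes), which gate the entrance, and of beta subunits (Psmb genes), of which Psmb5, Psmb6 and Psmb7 carry the constitutive cutting sites. A regulatory particle caps the core: its base holds ATPases that unfold the substrate (Psmc genes) and its lid removes ubiquitin. Interferon gamma induces Psmb8, Psmb9 and Psmb10, which replace Psmb5, Psmb6 and Psmb7 in newly built cores, and the activator subunits Psme1 and Psme2, and the resulting immunoproteasome makes peptides for presentation on major histocompatibility complex (MHC) class I molecules. In embryonic stem cells proteasome activity is known for clearing damaged proteins.

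The study measured total RNA of mouse embryonic stem cells with and without knockdown of Rif1, a protein that controls replication timing, telomeres and the repair of DNA breaks. There were 8 arrays in 4 groups of 2. J1 cells, of strain 129S4/SvJae, were transfected by lipofection with control shRNA or Rif1 shRNA and collected after 48 hours. F1 cells, of background C57BL/6xC3H, were a stable Rif1 knockdown line at passage 16, set against arrays labelled control shRNA. The cell line field of those F1 control arrays also carries the name of the knockdown line, so their control status rests on their titles and transfection labels. The cells were grown on feeders, a layer of support cells whose RNA can enter a sample. The labels do not say that the arrays of a group came from separate cultures or clones, and the p-values then reflect no more than array-to-array spread, which may be technical. Cell line, strain, duration and delivery of the shRNA all change between J1 and F1, and their parts in a difference between them cannot be told apart. The 3' over 5' ratio of the actin control probes, which tracks RNA integrity and labelling, differed as well. It was 2.17 to 2.71 in J1 and 1.33 to 1.41 in F1, and its part in such a difference was not tested.

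Rif1 itself was lower in every knockdown array. Its brightest probe set read 2614 and 3222 in J1 controls against 1260 and 1297 with Rif1 shRNA, and 4231 and 4247 in F1 controls against 1339 and 1407 with Rif1 shRNA. The deposited signals had medians of 61.1 to 69.4 on all arrays, but their 2% trimmed means were 193 to 197 in J1 and 301 to 309 in F1, so deposited signals are set side by side only within J1 or within F1 unless stated. Stem cell markers were bright in all groups, with Pou5f1 between 4505 and 8482. Of 12 such markers, 0 rose and 1 fell in J1 (Tfcp2l1, log2 -0.61), and 1 rose (Tdgf1, 0.25) and 6 fell in F1, led by Fgf4 (-0.62), Esrrb (-0.54) and Utf1 (-0.37). The summed signal of 26 tested feeder fibroblast markers was 16897 and 17808 in J1 controls, 15849 and 15920 in J1 with Rif1 shRNA, 23005 and 23092 in F1 controls, and 43512 and 45398 in F1 with Rif1 shRNA. None of these markers was at 0, since the lowest value in the table is 1. In F1, 22 of the 26 rose and 0 fell, and in J1, 1 rose and 5 fell. For both marker lists, the shares among all genes tested were 10.6% higher and 8.20% lower in F1. In J1 they were 1.86% and 2.17%. The stem cell markers had a median signal percentile of 96.65, and above the 90th percentile 28.3% of genes were called in F1. The part of the feeder and stem cell signals in the proteasome results was not tested, and in such bulk samples fewer cells of a type and less RNA per cell cannot be told apart.

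In J1 at 48 hours the proteasome genes hardly moved. Of the 82 probe sets, 0 rose and 1 fell at an adjusted p under 0.05, against 3.18% of all 31605 probe sets tested (1.44% higher, 1.74% lower). At the brightest probe set of each gene 0 rose and 1 fell, against 1.86% and 2.17%. Without adjustment, 15 of the 82 (18.3%) had a p under 0.05, against 17.1% of all probe sets. The single call was Psmc6, an ATPase of the base. The 3' over 5' ratio of the actin control probes, which tracks RNA integrity and labelling, also separated the J1 groups, with values given below. Its part in the J1 results was not tested. All 41 tested genes for subunits, activators and assembly chaperones, each at its brightest probe set, stayed within 1.2-fold of control, with fold changes from 0.848 to 1.18. The median half-width of their 95% intervals was 0.125 on the log2 scale. None of the 41 reached a log2 change of 0.25 in either direction, while 15.4% of 14714 genes did. The median absolute log2 change in J1 was 0.084 for the 41 and 0.112 for all genes. It was 0.087 for the 1472 genes above the 90th percentile of signal, where most of the 41 lay.

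In F1 at passage 16 proteasome genes were called about as often as other genes, and the changes were small. Of the 82 probe sets, 9 rose and 5 fell, which is 17.1% against 15.1% of all probe sets (8.28% higher, 6.81% lower). At the brightest probe set of each gene, 7 of 43 genes rose and 3 fell, against a background of 10.6% higher and 8.20% lower. The genes that rose were Psma1, Psma5, Psmb2, Psmb3, Psmb10, Psmd1 and Psmd6, and those that fell were Psma8, Psme3 and Psmc3ip. The share called was near the background in this fit, but with each array scaled to the same trimmed mean it was 8.54% against 18.5%, and without the intensity trend in the fit 6.1% against 12.1%. Of the 41 genes that exclude Psmc3ip and Psme3ip1, 37 stayed within 1.2-fold, the fold changes ran from 0.655 to 1.23, and 4 (9.76%) reached a log2 change of 0.25, against 26% of all genes. Brightness bears on this count. Of the 41, 31 lay above the 90th percentile of signal, where 28.3% of genes were called in F1 and 7.81% in J1. The median absolute log2 change in F1 was 0.126 for the 41, 0.119 for the 1472 genes above that percentile and 0.137 for all genes. Changes of this size were thus common to bright genes. Brightness also depends on the probe's sequence.

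**Figure D1:**
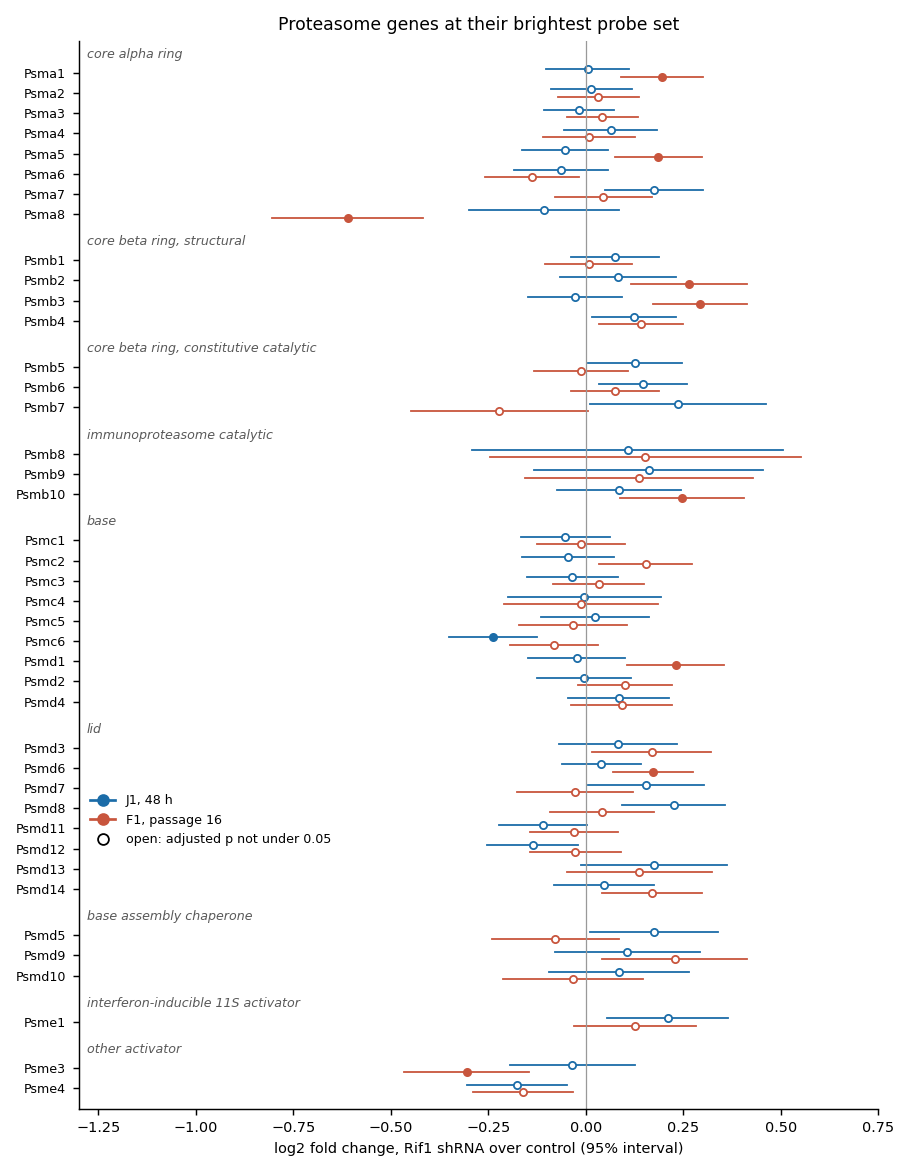
Log2 fold change of each proteasome gene, Rif1 shRNA over control, at its brightest probe set, in J1 (blue) and F1 (red), grouped by the role of the protein. Points are fitted values from 2 arrays a group, bars are 95% intervals, and filled points had an adjusted p under 0.05; nearly all genes sit close to 0, and Psma8 in F1 lies farthest out, at -0.61.

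**Figure D2:**
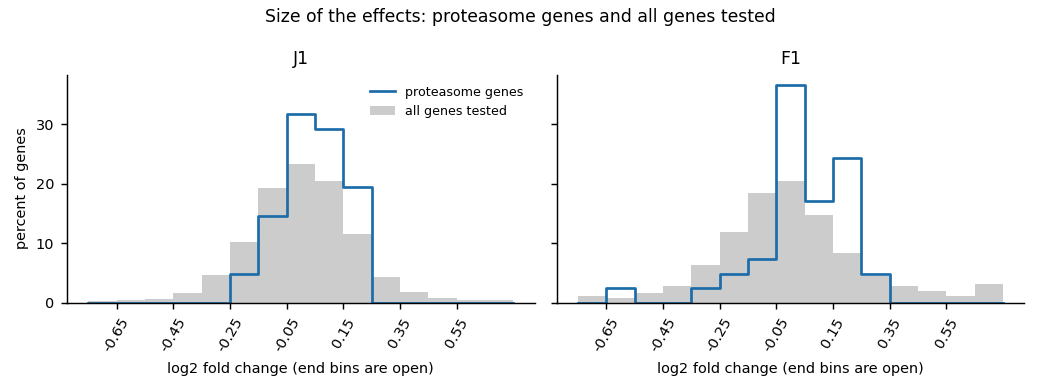
Share of genes, in percent, in each bin of log2 fold change for the 41 proteasome genes (blue line) and for all 14714 genes tested (grey), in J1 and F1. The proteasome genes are bunched around 0, with 0 of 41 at or beyond 0.25 in J1 and 4 of 41 in F1. The grey genes are not matched to the proteasome genes in brightness.

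The median log2 change over the 82 probe sets was 0.02 in J1 and 0.004 in F1, against -0.001 and -0.027 over all probe sets. Counting only whether the pairs of arrays overlapped, 21 of 43 genes (48.8%) were higher on both F1 knockdown arrays than on both controls and 7 (16.3%) were lower, against 32.0% and 36.5% of all genes. In J1 the counts were 12 (27.9%) higher and 5 (11.6%) lower, against 20.9% and 22.0%. Most of these shifts did not pass the test. The split of calls in F1 depended on the scaling between arrays: with each array scaled to the same trimmed mean, 3 probe sets rose and 4 fell, and with the values as deposited 11 rose and 4 fell.

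Among the alpha subunits of the core, 2 of 8 genes rose in F1 and 1 fell, against 10.6% and 8.20% of all genes, and 0 changed in J1, against 4.03%. Psma5, a constitutive alpha subunit, read 4323 and 4435 in F1 controls and 5357 and 5474 with Rif1 shRNA at probe set 1424681_a_at. Both knockdown arrays were above both controls, a 1.25-fold rise (log2 0.32 ± 0.05 SE, adjusted p = 0.000981, limma). In J1 the same probe set read 3125 and 2973 against 3068 and 3151, with overlapping groups. At its brightest probe set, 1434356_a_at, Psma5 rose in F1 from 5610 and 5399 to 6297 and 6089 (log2 0.19 ± 0.05 SE, adjusted p = 0.0295), while a dim probe set, 1454940_at, stood at -0.06 and was not called. Psma1, another alpha subunit, rose 1.14-fold in F1, from 4702 and 4689 to 5306 and 5436 (log2 0.20 ± 0.05 SE, adjusted p = 0.0182). Its second tested probe set stood at 0.00 in F1.

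Psma8 encodes an alpha subunit that replaces Psma7 in the proteasomes of spermatocytes. Its probe set read 580 and 615 in F1 controls and 391 and 390 with Rif1 shRNA. Both knockdown arrays were far below both controls, at 0.655 of the control level (log2 -0.61 ± 0.09 SE, adjusted p = 0.000793), the furthest change of any member. In J1 it read 338 and 340 in controls against 289 and 337 with Rif1 shRNA, and only 1 of the knockdown arrays was clearly lower (log2 -0.11, 95% interval -0.30 to 0.09, adjusted p = 0.59). The F1 effect was lower than the J1 effect by the test of the difference (-0.50 ± 0.12 SE, adjusted p = 0.0293). Psma7, the constitutive counterpart, stood at 0.17 in J1 and 0.05 in F1 and was not called.

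Among the structural beta subunits, which hold the core together without cutting sites, Psmb2 and Psmb3 rose in F1 and Psmb1 and Psmb4 were not called. Of all genes tested, 10.6% were called higher and 8.20% lower in F1. Psmb3 read 4724 and 4830 in F1 controls and 5758 and 5581 with Rif1 shRNA, a 1.23-fold rise with no overlap (log2 0.29 ± 0.06 SE, adjusted p = 0.00417). In J1 it read 5174 and 4557 against 4683 and 4880, so the knockdown arrays lay between the controls. The difference between both effects passed the test (0.32 ± 0.08 SE, adjusted p = 0.0278). The other Psmb3 probe set gave 0.24 in F1 and missed the threshold (adjusted p = 0.0866). It stood at 0.10 in J1, and its difference between the lines, 0.15, was not called (adjusted p = 0.54). Psmb2 rose 1.2-fold in F1, from 3361 and 3503 to 4032 and 4106 (log2 0.27 ± 0.07 SE, adjusted p = 0.0216).

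The constitutive catalytic subunits and their interferon-induced replacements form 3 pairs: Psmb5 with Psmb8, Psmb6 with Psmb9, and Psmb7 with Psmb10. Their promoters are where their control is known to differ, since the constitutive genes answer to NFE2L1 through antioxidant response elements and the induced ones to interferon signalling. The 200 bases before the transcription start are shown for Psmb5 and for the neighbours Psmb8 and Psmb9, from RefSeq (GRCm38.p6), 5′ to 3′ on the strand of the gene. They lie at chr14:54617996-54618195 on the minus strand for Psmb5, chr17:34197995-34198194 on the plus strand for Psmb8, and chr17:34187331-34187530 on the minus strand for Psmb9, whose window lies between Psmb9 and Tap1, a peptide transporter gene. Capitals mark the antioxidant response element core TGACNNNGC in Psmb5 and the interferon gamma activation site core TTCNNNGAA in Psmb8; neither core is in the Psmb9 window.
Psmb5: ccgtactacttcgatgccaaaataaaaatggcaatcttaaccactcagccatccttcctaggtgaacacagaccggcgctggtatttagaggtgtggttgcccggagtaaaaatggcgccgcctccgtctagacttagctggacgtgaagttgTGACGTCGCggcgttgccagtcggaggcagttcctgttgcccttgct
Psmb8: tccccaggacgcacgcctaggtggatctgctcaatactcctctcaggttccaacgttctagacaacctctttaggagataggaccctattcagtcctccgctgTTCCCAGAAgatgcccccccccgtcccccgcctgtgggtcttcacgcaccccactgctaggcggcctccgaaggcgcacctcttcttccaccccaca
Psmb9: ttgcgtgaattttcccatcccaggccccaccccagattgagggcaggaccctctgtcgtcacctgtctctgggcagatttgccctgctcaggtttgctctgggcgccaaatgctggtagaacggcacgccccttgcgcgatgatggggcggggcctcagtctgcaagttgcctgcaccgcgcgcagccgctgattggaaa

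Both strands of the 250 bases before the start were searched in the 35 of 42 proteasome genes that the promoter table holds. The core TGACNNNGC was in 5 of the 35 (14.3%, against 11.5% of 27025 genes): Psmb5, Psmb6, Psmc6, Psmd12 and Psmd9. The core TTCNNNGAA was in Psmb8 alone (2.86% against 8.13%), the core of the interferon-stimulated response element in Psmb3, Psmd4 and Psmd9 (8.57% against 3.46%), and CCAAT in 14 of the 35, against 37.5%. The matches to the first 3 cores do not overlap each other. These letter matches describe the windows and are not evidence of binding.

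None of the constitutive catalytic genes was called in either cell line. In J1 all were higher on both knockdown arrays than on both controls. Of all genes, 20.9% were separated in this way upward in J1 and 22.0% downward. Psmb5, the chymotrypsin-like site, read 4518 and 4477 in controls and 5304 and 4667 with Rif1 shRNA (log2 0.13, 95% interval 0.01 to 0.25, adjusted p = 0.273). Psmb6, the caspase-like site, read 5373 and 4983 against 6045 and 5523 (log2 0.15, interval 0.03 to 0.26, adjusted p = 0.163). Psmb7, the trypsin-like site, read 1110 and 1049 against 1274 and 1251 (log2 0.24, interval 0.01 to 0.46, adjusted p = 0.272). All 3 shifts had intervals just above 0 and missed the adjusted threshold.

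In F1 the same genes went separate ways, again without a call. Psmb5 read 6071 and 6041 in controls against 6124 and 6036, so that the groups overlapped (log2 -0.01, interval -0.13 to 0.11). Psmb6 read 5489 and 5375 against 5665 and 5709 (log2 0.07, interval -0.04 to 0.19). Psmb7 read 1899 and 1611 against 1729 and 1383, with wide, overlapping groups (log2 -0.22, interval -0.45 to 0.01, adjusted p = 0.197). The difference between the F1 and J1 effects on Psmb7 was -0.46 ± 0.15 SE and missed the threshold (adjusted p = 0.0825).

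Of the immunoproteasome genes, Psmb10 rose in F1, where 10.6% of all genes were called higher, and the others were not called in either line. Psmb10, the replacement for Psmb7, read 776 and 749 in F1 controls and 938 and 945 with Rif1 shRNA, a 1.19-fold rise with no overlap (log2 0.25 ± 0.07 SE, adjusted p = 0.0418). In J1 it read 713 and 703 against 776 and 707, where 1 knockdown array lay near the controls (log2 0.08, adjusted p = 0.61). The difference between the lines was not called (0.16, interval -0.06 to 0.39, adjusted p = 0.394). The Psmb10 call is the closest to the threshold among the genes called at their brightest probe set, and its adjusted p went to 0.0514 and 0.0518 when either J1 control array was left out and to between 0.102 and 0.235 when an F1 array was.

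Psmb9, the replacement for Psmb6, read 67.7 and 72.7 in J1 controls against 86.3 and 77.3, and 162 and 182 in F1 controls against 216 and 190. The knockdown arrays were higher in both lines as deposited, but after normalization the J1 pairs overlapped, and the intervals ran from -0.13 to 0.46 in J1 and from -0.16 to 0.43 in F1 on the log2 scale. Psmb8, the replacement for Psmb5, was dim and its 2 probe sets did not match: 1444619_x_at read 282 and 206 in J1 controls and 29.2 and 32.5 in F1 controls, whereas 1422962_a_at read 40.1 and 40.6 in J1 and 218 and 220 in F1. Neither was called, with effects of 0.11 and -0.04 in J1 and 0.15 and -0.03 in F1. Psme1, a subunit of the interferon-induced activator ring, read 845 and 773 in J1 controls against 971 and 886, and 1734 and 1725 in F1 controls against 1974 and 1912. Both pairs were separated, by 0.21 (interval 0.05 to 0.37, adjusted p = 0.15) in J1 and 0.13 (interval -0.03 to 0.28, adjusted p = 0.294) in F1, without a call.

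**Figure D3:**
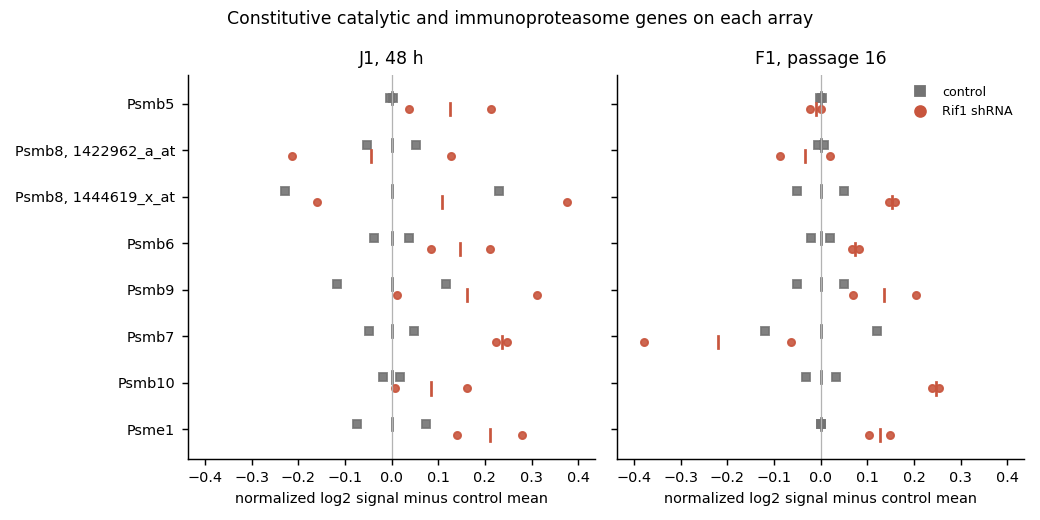
Normalized log2 signal of each array minus the mean of the controls for the constitutive catalytic genes, each followed by its interferon-induced replacement, and for Psme1, in J1 (left) and F1 (right). Grey squares are control arrays, red circles Rif1 shRNA arrays and short bars group means of 2 arrays; Psmb10 in F1, at 0.25, is the single gene called.

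Genes of antigen processing and regulators of the interferon response form a list with 16 tested members, of which 2 changed in J1 and 4 in F1. In J1, 2 rose and 0 fell, against 4.03% of genes called: the MHC class I heavy chains H2-D1 (log2 0.51, adjusted p = 0.0154) and H2-K1 (0.43, adjusted p = 0.0484). In F1, 4 rose and 0 fell, against 18.8%: B2m, the light chain of MHC class I (1.10, adjusted p = 3.67e-05), Tapbp, which loads peptides (0.49, adjusted p = 0.00422), Ifngr2, a chain of the interferon gamma receptor (0.47, adjusted p = 0.0172), and H2-D1 (0.34, adjusted p = 0.0297). B2m read 869 and 855 in F1 controls and 1995 and 1842 with Rif1 shRNA, so it more than doubled. In the same F1 arrays Psmb10 was called higher (0.25, adjusted p = 0.0418), while Psme1 (0.13), Psmb8 and Psmb9 were not called. Psmb8 and Psmb9 were far dimmer than B2m, and the missing calls do not show that they stayed level. Tap1 and Tap2, which lie beside Psmb9 and Psmb8 on chromosome 17, stood at 0.09 and 0.31 in F1 and were not called. B2m and Tapbp also passed the test of the difference between F1 and J1 (0.91 and 0.54, adjusted p = 0.00306 and 0.0268), and the call held in all 8 leave-outs of 1 array for B2m but in 3 for Tapbp, where the adjusted p reached 0.162. Next in order of p, and not called, were Ifngr2 (0.23) and Nlrc5 (0.27) in J1 and Erap1 (0.61) and Tap2 (0.39) in the difference. Without any single F1 array fewer of these 16 genes rose in F1, and fewer of all probe sets were called. With the values as deposited or scaled to one trimmed mean 9 rose in F1, against 19.6% and 18.5% of all probe sets called. In J1 these 2 settings gave 1 call. The J1 count was 0 with only the 4 J1 arrays, without the intensity trend or with the replicate number as a block. The shares of all probe sets called in J1 were then 0.886%, 1.11% and 1.48%. The J1 call of H2-D1 was lost without the first J1 control (adjusted p = 0.0891), and that of H2-K1 held only without the second J1 Rif1 shRNA array. The feeder markers that rose in the same F1 arrays are given above, and their part in these values was not tested.

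In the base of the regulatory particle, 1 of 9 genes (11.1%) fell in J1, against 2.17% of all genes, and 1 (11.1%) rose in F1, against 10.6%, at the brightest probe set. Psmc6, an ATPase, read 3040 and 3317 in J1 controls and 2701 and 2718 with Rif1 shRNA. Both knockdown arrays were below both controls (log2 -0.24 ± 0.05 SE, adjusted p = 0.0337). Its other probe sets were lower by the same order in J1, at -0.27 and -0.29, without passing (adjusted p = 0.302 and 0.0588). In F1 the 3 probe sets stood at -0.08, 0.10 and 0.21, none called, and the F1 and J1 effects differed at 1417770_s_at (0.50 ± 0.10 SE, adjusted p = 0.0121). The actin control probes, whose 3' over 5' ratio tracks RNA integrity and labelling, gave 2.61 and 2.71 in J1 controls and 2.17 and 2.18 with Rif1 shRNA, and its part in the J1 values was not tested. The J1 call of Psmc6 was lost when any array other than the first J1 control was left out, at adjusted p from 0.0527 to 0.198.

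Psmd1, the scaffold subunit of the base, rose 1.17-fold in F1, from 5735 and 5810 to 6663 and 6730 (log2 0.23 ± 0.06 SE, adjusted p = 0.0184), and stood at -0.02 in J1. Psmc2, another ATPase, was split between its probe sets in F1: 1426611_at rose (0.16, adjusted p = 0.0456) and the brighter 1435859_x_at gave a like value and missed the threshold (0.15, adjusted p = 0.0844). At their brightest probe sets the other base genes, among them the ubiquitin receptors Psmd2 and Psmd4, were between -0.05 and 0.10 in both lines. Psmd4 stood higher in J1 at 1425859_a_at (0.196, adjusted p = 0.0767) and 1451725_a_at (0.225, adjusted p = 0.411), without a call.

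In the lid, 1 of 8 genes (12.5%) changed in F1, against 18.8% of all genes, and 0 in J1, against 4.03%. Psmd6 rose 1.13-fold in F1, from 4635 and 4641 to 5188 and 5312 (log2 0.17 ± 0.05 SE, adjusted p = 0.0279), while its dimmer probe set 1423696_a_at stood at 0.03. Psmd14, the enzyme that removes ubiquitin chains, read 4616 and 4742 in F1 controls against 5179 and 5388 and missed the threshold (0.17, adjusted p = 0.0774). Psmd8 was the lid gene nearest to a call in J1, at 1294 and 1202 against 1501 and 1418 (0.23, adjusted p = 0.0722). The 3 assembly chaperones of the base, Psmd5, Psmd9 and Psmd10, were not called in either line.

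Psme3 and Psme4 encode activators that open the core without the regulatory particle: Psme3 forms a ring in the nucleus and Psme4 is a large single-chain activator with roles in DNA repair and spermatogenesis. All 9 of their tested probe sets stood below 0 in F1, from -0.34 to -0.02, as did 17650 of all 31605 probe sets. Of the 9, 2 were called lower, against 6.81% of all probe sets. The 9 come from these 2 genes, and probe sets of the same gene are not separate evidence. Psme3 read 713 and 725 in F1 controls and 572 and 610 with Rif1 shRNA, at 0.809 of control (log2 -0.31 ± 0.07 SE, adjusted p = 0.0155). In J1 it read 702 and 655 against 642 and 671, with overlapping groups, and its dimmer probe sets were not called in either line. Psme4 fell in F1 at 1452211_at, from 1997 and 2016 to 1754 and 1840 (log2 -0.20 ± 0.06 SE, adjusted p = 0.0458). Its brightest probe set read 3410 and 3645 against 3171 and 3270 in F1 (-0.16, adjusted p = 0.0928) and 2277 and 2454 against 2072 and 2090 in J1 (-0.18, adjusted p = 0.14), lower on both knockdown arrays in each line without a call. The fall of Psme3 was not shown to differ between the lines (-0.27, adjusted p = 0.144).

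Psmc3ip, taken in by name, encodes a partner of the recombinase DMC1 in meiotic recombination and is no part of the proteasome. It read 786 and 815 in F1 controls and 602 and 623 with Rif1 shRNA, at 0.755 of control (log2 -0.40 ± 0.08 SE, adjusted p = 0.00439). Its second probe set read 586 and 604 against 422 and 452 (-0.46 ± 0.07 SE, adjusted p = 0.00142). The groups were well apart at both. In J1 the probe sets stood at 0.11 and -0.13 and were not called, and the F1 and J1 effects differed at the first (-0.51 ± 0.11 SE, adjusted p = 0.0141).

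**Figure D4:**
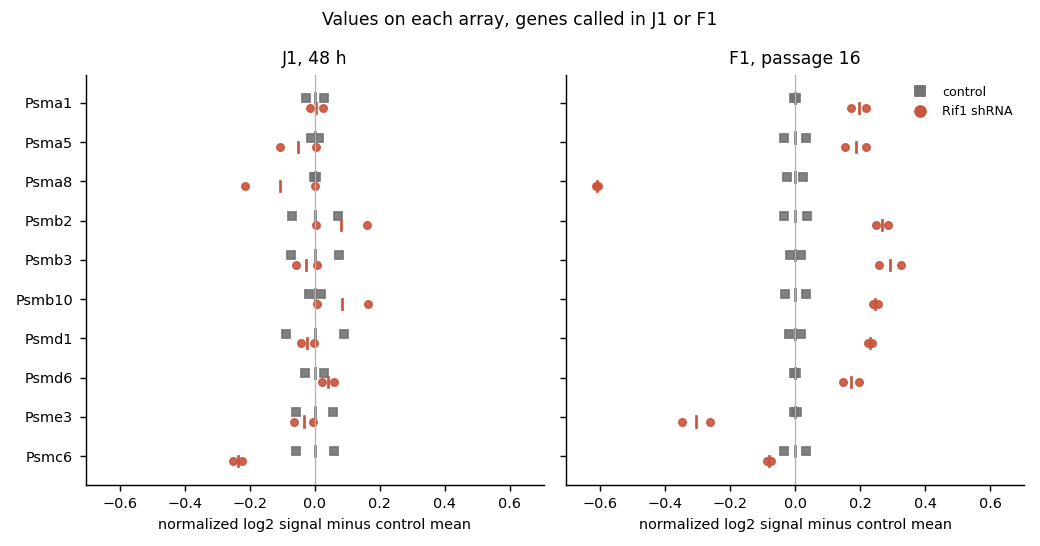
Normalized log2 signal of each array minus the control mean for the proteasome genes called in J1 or F1 at their brightest probe set, in J1 (left) and F1 (right). Grey squares are control arrays, red circles Rif1 shRNA arrays and short bars group means of 2 arrays. In F1 the groups do not overlap for any of the 10 genes, and in J1 they separate for Psmc6 alone. The genes were picked by their calls on these same arrays, so the separation is not separate evidence. Of all genes, 32.0% were higher and 36.5% lower without overlap in F1, and 20.9% and 22.0% in J1.

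By the test of the difference between the F1 and J1 effects, 5 of 82 probe sets were called, 3 higher and 2 lower in F1 relative to J1, against 8.37% of all probe sets (4.99% higher, 3.37% lower). At the brightest probe sets 1 gene was higher and 2 lower, against 6.25% and 4.37%. They belong to Psma5, Psmb3, Psmc6, Psma8 and Psmc3ip. No call of a difference held through all 8 leave-outs of 1 array: the highest adjusted p was 0.0663 for Psmc6, 0.089 for Psmc3ip, 0.127 for Psma5, 0.13 for Psma8 and 0.143 for Psmb3. Of the 14 calls in F1, those of Psma8, of Psma5 at 1424681_a_at and of Psmc3ip at 1442058_s_at held whichever array was left out. Those of Psmb3 and of Psmc3ip at 1425271_at were lost without the first F1 Rif1 shRNA array (adjusted p = 0.0596 and 0.0639), and each of the others was lost without any single F1 array. Fewer members were called in F1 without any single F1 array, and fewer of all probe sets were called as well.

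Genes that work with the proteasome but carry other names, a list with 26 tested members, were not called in J1 except Nploc4, a cofactor of the unfolding ATPase Vcp, which fell (log2 -0.36, adjusted p = 0.0102) but not without either J1 control array (adjusted p = 0.0582 and 0.0668). Next in order of p in J1, and not called, were Akirin2 (-0.21), Ubqln2 (-0.24) and Zfand2a (0.43). In F1, 6 of the 26 rose and 2 fell, against 10.6% and 8.20% of all genes. The 4 with the smallest p were Zfand5, a proteasome-binding zinc finger protein (0.27, adjusted p = 0.0058), Sem1, a small subunit of the lid (0.23, adjusted p = 0.00676), Ubqln4, a ubiquitin receptor, which fell (-0.38, adjusted p = 0.00715), and Vcp (0.22, adjusted p = 0.00834). The difference between F1 and J1 was called for Nploc4, Vcp and Sem1 (0.61, 0.32 and 0.24, adjusted p = 0.00131, 0.0126 and 0.0478), against 10.6% of genes. It held in all 8 leave-outs for Nploc4, in 6 for Vcp and in 1 for Sem1, with adjusted p up to 0.091 and 0.22 for the latter pair; Pomp was next (0.24) and was not called. The transcription factor Nfe2l1, which drives proteasome genes when the proteasome is inhibited, stood at 0.16 in J1 and 0.05 in F1 and was not called, nor were the core assembly factors Pomp and Psmg1 to Psmg4. Without any single F1 array fewer of the 26 were called in F1, as were fewer of all probe sets.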

How the data were processed

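The authors deposited 1 table of intensity signals on a linear scale, made with MAS5 per the submitters' processing notes (version and settings not given in the sources used here). Probe sets were named through the platform annotation. Values were turned to log2(signal + 18), quantile normalized over all 8 arrays, and tested if 2 or more arrays had them over that array's 40th percentile. limma 3.58.1 (R 4.3.3; eBayes with intensity trend) was fitted to the 4 groups of 2 arrays, and p-values were adjusted by Benjamini-Hochberg over 31605 probe sets with a threshold of 0.05, two-sided. The fit was tested on simulated data. The number of arrays limits the precision. The added 18 makes fold changes of dim probe sets too small. A gene is read at its brightest tested probe set. Of the genes, the text names immunoproteasome and constitutive catalytic members, members called, and from each other list the 4 with the smallest p; other uncalled genes, such as Psma7, Psmd8, Psmd14, Tap1 and Nfe2l1, were named after their values were seen. The members and lists were chosen with earlier results of these data known. Array replicate numbers were not shown to pair samples. The treatment label speaks of virus or siRNA, while the design speaks of shRNA.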

Additional observations from a re-analysis of the deposited data

Results flagged for a closer look

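At 5 probe sets the effect of Rif1 shRNA differed between F1 and J1 by the test of the difference itself (limma, log2 scale). Psma5 at 1424681_a_at stood at 0.0292 in J1 and 0.32 in F1, a difference of 0.29 (adjusted p = 0.0219). Psma8 stood at -0.11 and -0.61, a difference of -0.50 (adjusted p = 0.0293). Psmb3 stood at -0.0271 and 0.29, a difference of 0.32 (adjusted p = 0.0278). Psmc3ip stood at 0.11 and -0.40, a difference of -0.51 (adjusted p = 0.0141). Psmc6 at 1417770_s_at stood at -0.29 and 0.21, a difference of 0.50 (adjusted p = 0.0121), with neither effect called alone. At the other tested probe sets of Psma5, Psmb3, Psmc3ip and Psmc6 the difference was not called. With groups of 2 arrays, single arrays could not be checked as outliers.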

How the results depend on the processing

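With 2 arrays a group the calls moved easily. The count of members called in F1, 14, was 7 with arrays scaled to one trimmed mean (8.54% against 18.5% of all probe sets), 22 with only the 4 F1 arrays in the fit (26.8% against 25.7%) and 5 without the intensity trend (6.1% against 12.1%). The J1 count, 1, was 2 under the 60th percentile filter (2.78% against 5.12%). It was 0 with the 4 J1 arrays alone, without the trend, or with the replicate number as a block, against 0.886%, 1.11% and 1.48% of all probe sets. The count of differences, 5, was 1 without the trend (1.22% against 6% of all probe sets). With the replicate block the counts were 14 in F1 and 4 for the difference, against 11.7% and 5.41% of all probe sets. The same-numbered arrays' deviations correlated at -0.339 in J1 and 0.194 in F1. With the J1 numbers crossed, chosen after seeing the data, the counts were 1, 15 and 7, against 5.65%, 19.3% and 12.2%. Leaving out 1 array at a time gave 0 to 3 in J1, 3 to 17 in F1 and 0 to 7 for the difference. Signs turned for some effects that were not called and for none that were: Psmb8 (-0.0176) and Psmb9 (0.0002) in the difference with a larger offset, Psmb5 in F1 (0.0057) and Psmb9 in the difference (0.0376) as deposited, Psmb9 in the difference (0.0308) normalized within each line, and with the mean over probe sets Psmb3 (0.0361) and Psmc3ip (-0.0087) in J1 and Psmc6 in F1 (0.0756). With 1 array left out, the effects of 37 of 81 uncalled probe sets in J1, 27 of 68 in F1 and 27 of 77 in the difference ranged across 0, and 0 of those called did. Among them were Psmd1 in J1 (-0.111 to 0.065), and Psma8 (-0.2184 to 0.0014), Psmb3 (-0.0973 to 0.0446) and Psmb8 (-0.1619 to 0.3792) in J1, Psmb5 in F1 (-0.0245 to 7e-04), and Psmb8 (-0.224 to 0.3156) and Psmb9 (-0.1788 to 0.1286) in the difference. The cause was not tested.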

Other observations

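Some probe sets read the control cells of J1 and F1 at widely different levels while another probe set of the same gene did not. Of 82 probe sets, 12 differed by more than 1 on the normalized log2 scale between J1 and F1 controls, 8 higher and 4 lower in F1, and 2 of the 12 were the brightest of their gene. The share of all probe sets that differed this much was not computed, so the count does not set proteasome probe sets apart from others. Psma6 at 1435317_x_at read 14.6 and 14.2 in J1 controls and 4364 and 4172 in F1 controls, while its brightest probe set, 1437144_x_at, read 5487 and 5049 in J1 and 5418 and 5061 in F1. Psmd6 at 1423696_a_at read 207 and 165 in J1 and 1593 and 1271 in F1. Its brightest probe set read 2813 and 2925 in J1 and 4635 and 4641 in F1, on deposited signals whose scale differs between the lines.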
